A study of Homo sapiens with 18 samples.

Results

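The comparison described here sets the WC variant, in which WWOX and AP-2γ were both overexpressed, against the KK variant, the double control, in 3 urinary bladder carcinoma lines, namely RT-112, HT-1376 and CAL-29. Its members are the 6 libraries labelled WC or KK, 1 of each per line, out of 18 libraries in the series, and they were paired by cell line. Expression was measured by CAGE-seq, which counts sequencing tags from the capped 5′ ends of RNA, and was deposited for 16575 genes as CPM, the tag count of a gene scaled to the total of its library. The WC cells carried WWOX on the lentiviral vector pLenti-GIII-CMV-GFP-2A-Puro and AP-2γ on pLKO-Neo-CMV, so that the constitutive CMV promoter drove both transgenes. The KK cells received blank lentiviral particles in both rounds and carry neither transgene. Cells of both variants went through puromycin and G418 selection, and no untransduced cells were among the libraries used. The single-transgene variants WK (WWOX and the blank control) and KC (the blank control and AP-2γ) are given only beside the results. The study treated WC as its rescue variant.

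WWOX is a cytoplasmic oxidoreductase with paired WW domains, and these domains bind proline-rich motifs in partner proteins. AP-2γ, encoded by TFAP2C, is a transcription factor of epithelial and trophoblast cells that binds GC-rich palindromes, and WWOX can hold AP-2 proteins outside the nucleus. In the bladder lining, differentiation runs from basal cells, marked by keratins such as KRT5, to luminal umbrella cells, marked by uroplakins, and urothelial tumors can lose this program in favor of squamous differentiation.

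Reads on genes numbered 14287464 to 17170660 in the 6 libraries, and a single read was worth 0.0548 to 0.0658 CPM. TMM factors, which correct for the composition of a library, were 0.774 and 0.750 in RT-112, 1.075 and 0.952 in HT-1376, and 1.564 and 1.077 in CAL-29, for KK and WC respectively, so that the CAL-29 KK library stood apart. In CAL-29, division by these factors raised the change of well-expressed genes above that in deposited CPM. The WC libraries kept the genes particular to their own line. Among genes that marked CAL-29 KK, 60 of 68 were at 10% or more of that level in CAL-29 WC, and 13 were in HT-1376 WC. The epithelial markers KRT7, KRT8, KRT18, KRT19, CDH1 and EPCAM were present in all 6 libraries, with KRT18 between 598.62 and 4389.13 CPM. The luminal marker UPK2 was below 3 CPM in HT-1376 and CAL-29. The basal marker KRT5 was at 29.75, 0.20 and 20.91 CPM in KK of RT-112, HT-1376 and CAL-29. In WC it was at 17.72, 10.74 and 155.81 CPM. Since each variant of a line is a single library, the only replication is between the 3 lines. The SE and p-values from limma combine the spread of a gene's change between lines with the spread of other genes of similar level. The latter enters with 4.92 prior degrees of freedom. A gene with nearly equal changes in the 3 lines can therefore still have a large SE.

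TFAP2C (hg38, chromosome 20, 56629306 to 56639283) had KK and WC levels of 57.95 and 142.75 CPM in RT-112, 158.24 and 162.76 CPM in HT-1376, and 87.95 and 338.56 CPM in CAL-29. It was thus higher in WC in 3 of 3 lines, with a change on the log2(TMM-scaled CPM + 0.5) scale of 1.34, 0.22 and 2.47 and a mean log2FC of 1.34 (SE 0.45, limma unadjusted p = 0.022, adjusted p = 0.825). The difference in HT-1376 was small, so that this line holds WC and KK libraries with nearly the same TFAP2C level. With 3 pairs, an exact permutation test of the sign can give no two-sided p below 0.25, which was the value for TFAP2C.

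WWOX (chromosome 16, 78099400 to 79212667) was at 26.04, 22.36 and 63.68 CPM in KK of RT-112, HT-1376 and CAL-29, and at 18.45, 23.06 and 62.36 CPM in WC. It did not separate the variants, with changes of −0.45, 0.22 and 0.50 and a mean log2FC of 0.09 (SE 0.32, limma unadjusted p = 0.783). Without TMM scaling the mean was −0.16. Whether tags that begin in the vector were assigned to WWOX or TFAP2C is not given in the sources used here, so these counts check the labels only in part. TFAP2A encodes the related factor AP-2α and was not introduced into WC. Its changes were 0.27, 0.25 and 0.37, with an SD of 0.063 between lines (limma SE 0.28, limma unadjusted p = 0.321). The deposited levels were 18.01, 68.99 and 35.43 CPM in KK and 21.16, 72.86 and 31.71 CPM in WC. In CAL-29 the level was thus lower in WC before TMM scaling.

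MMP9 (chromosome 20, 46008908 to 46016561) encodes gelatinase B, a secreted protease of the basement membrane. It had 1 read in KK and 1 read in WC of RT-112. In HT-1376 the KK library held 0.07 CPM (1 read) and the WC library 51.93 CPM (948 reads). The corresponding CAL-29 libraries held 0.56 CPM (10 reads) and 54.71 CPM (973 reads). The WC to KK ratio was 892 in HT-1376 (95% exact counting interval 159.8 to 35280) and 141.7 in CAL-29 (76.7 to 296.5), and these intervals cover counting error only. MMP9 therefore differed between WC and KK in 2 of 3 lines and was at the limit of detection in RT-112. Over the 3 lines the log2FC was 4.17 (SE 1.20, limma unadjusted p = 0.010, adjusted p = 0.825). It reached 5 CPM in WC libraries only. Without RT-112, the line with no difference, the log2FC was 6.42 (limma adjusted p = 0.035), a value given only as a description, since the line left out was the one without a difference.

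**Figure D1:**
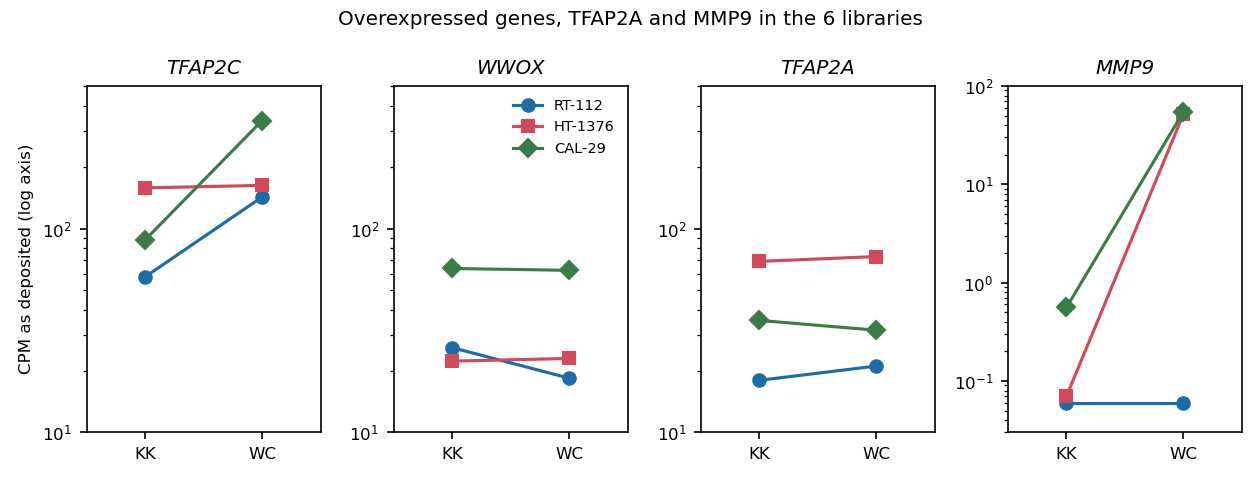
Deposited CPM (log axis, with its own range for MMP9) of TFAP2C, WWOX, TFAP2A and MMP9 in the 6 libraries, with a line joining KK and WC of the same cell line. TFAP2C was higher in WC in 3 of 3 lines, WWOX was not, and MMP9 was above 50 CPM in WC of HT-1376 and CAL-29 only.

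Across the 12533 genes that reached 5 CPM in 1 or more of the 6 libraries, 0 passed an adjusted p of 0.05 in the limma fit with the cell line as a term, and 584 (4.66%) had an unadjusted p under 0.05. The fit by edgeR on the reads recovered from the CPM also called 0 genes, with 561 (4.48%) at an unadjusted p under 0.05, whereas DESeq2 called 65 (0.519%), of which 64 were higher in WC, with 789 (6.3%) unadjusted. On simulated reads, described below, DESeq2 called 34 unchanged genes, edgeR 19 and limma 3, so the DESeq2 calls are a description only. The lowest limma adjusted p was 0.055, for KLK5. The agreement of the lines was therefore described by counts. In 3 of 3 lines, 40 genes (0.319%) were at least 2-fold higher in WC and 3 genes (0.0239%) at least 2-fold lower. At 1.5-fold the counts were 143 (1.14%) and 84 (0.67%), and in the same direction at any size they were 1818 (14.5%) and 1674 (13.4%).

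The lines differed in how many genes were at least 2-fold apart. RT-112 had 446 such genes higher (3.56%) and 439 lower (3.5%) in WC, HT-1376 had 1275 (10.2%) and 884 (7.05%), and CAL-29 had 1813 (14.5%) and 2321 (18.5%). In addition, 505 genes (4.03%) were at least 2-fold higher in 1 line and at least 2-fold lower in another. Over the 12533 genes, Pearson's r between the within-line changes was 0.087 for RT-112 and HT-1376, −0.136 for RT-112 and CAL-29, and 0.229 for HT-1376 and CAL-29. These are correlations across genes, which are not independent replicates, of lines that share no library.

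**Figure D2:**
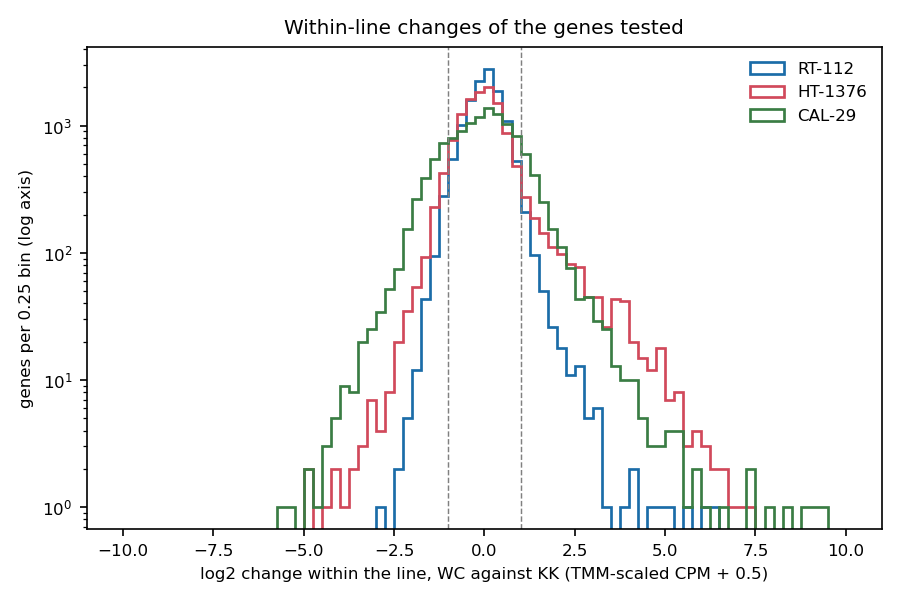
Number of genes (log axis) by their log2 change within a line, WC against KK, in bins of 0.25, with dashed lines at a 2-fold difference. The distribution was narrowest in RT-112, with 446 genes at least 2-fold higher, and widest in CAL-29, with 1813.

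The 40 genes higher in 3 of 3 lines were ranked by the change in their weakest line. KLK5, INHBA, S100A7 and IGFBP5 led this order, and their reference promoters are shown as the sequence around an annotated start. Where within a gene its tags began was not analysed here, and the INHBA start shown lies inside the gene as annotated in GENCODE. Each sequence is the GRCh38.p14 reference from RefSeq, 5′ to 3′ on the strand of the gene, from 250 bases before to 50 bases after an annotated start. The regions are chr19:50952989-50953288 for KLK5, chr7:41703041-41703340 for INHBA, chr1:153460602-153460901 for S100A7 and chr2:216695500-216695799 for IGFBP5, all on the minus strand. Capitals mark matches to GCCNNNGGC, a form of the AP-2 palindrome, or to the TATA box TATAAA on the strand of the gene.
KLK5: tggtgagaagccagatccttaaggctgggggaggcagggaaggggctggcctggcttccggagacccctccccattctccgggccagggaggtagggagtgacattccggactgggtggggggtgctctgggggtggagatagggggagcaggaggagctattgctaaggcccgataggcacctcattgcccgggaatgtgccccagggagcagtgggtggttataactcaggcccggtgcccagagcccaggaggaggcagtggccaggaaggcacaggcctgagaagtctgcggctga
INHBA: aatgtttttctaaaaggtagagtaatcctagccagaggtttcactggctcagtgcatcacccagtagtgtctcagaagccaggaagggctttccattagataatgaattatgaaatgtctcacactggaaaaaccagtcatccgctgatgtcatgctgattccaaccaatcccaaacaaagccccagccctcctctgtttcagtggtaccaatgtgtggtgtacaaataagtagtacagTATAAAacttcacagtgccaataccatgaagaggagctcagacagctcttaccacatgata
S100A7: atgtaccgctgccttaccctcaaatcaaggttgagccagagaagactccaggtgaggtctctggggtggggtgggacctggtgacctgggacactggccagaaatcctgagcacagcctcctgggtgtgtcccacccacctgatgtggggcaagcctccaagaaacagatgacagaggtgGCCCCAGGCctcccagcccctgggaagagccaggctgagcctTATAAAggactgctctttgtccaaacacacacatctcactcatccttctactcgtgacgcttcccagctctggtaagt
IGFBP5: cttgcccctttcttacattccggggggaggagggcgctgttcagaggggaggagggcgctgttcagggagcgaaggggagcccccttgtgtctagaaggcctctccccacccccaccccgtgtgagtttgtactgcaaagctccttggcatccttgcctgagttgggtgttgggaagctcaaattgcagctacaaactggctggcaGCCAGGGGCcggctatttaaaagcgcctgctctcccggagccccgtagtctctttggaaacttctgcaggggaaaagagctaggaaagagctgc

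GCCNNNGGC, which reads the same on both strands, begins 70 bases before the start of S100A7 and 44 bases before that of IGFBP5. TATAAA begins 28 bases before the start of S100A7 and 11 bases before that of INHBA. Neither motif was in the KLK5 window. GCCNNNGGC was in 8 of the 33 RefSeq promoters found for 25 of the 40 genes (24.2%), and in 23.2% of all 35116 promoters or 31.5% of those of genes tested. For TATAAA the shares were 27.3%, 7.33% and 3.92%, and for the AP-1 motif TGANTCA they were 6.06%, 7.71% and 5.22%. The longer form of the palindrome, with 4 bases between GCC and GGC, was in 3 of the 33 promoters (9.09%), in 21.4% of all promoters and in 29.6% of those of genes tested.

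The 40 genes are described by what each is known to do, an arrangement made after their values were seen. Several of them are known from skin and hair. KLK5 (chromosome 19, 50943303 to 50953093), a serine protease that sheds cornified cells, was at 1.22, 1.84 and 0.34 CPM in KK of RT-112, HT-1376 and CAL-29. In WC it was at 112.07, 46.73 and 54.88 CPM. Every WC library was above every KK library, and the within-line changes corresponded to 72.2-fold, 22.4-fold and 71.7-fold. The log2FC was 5.61 (SE 0.44, limma unadjusted p = 4.36e-06, adjusted p = 0.055). Its neighbor KLK8 (chromosome 19, 50996007 to 51002711), a protease of the same family, was at 10.86, 3.09 and 24.55 CPM in KK and at 71.19, 87.71 and 47.85 CPM in WC. The lowest WC library was again above the highest KK library (log2FC 2.99, SE 0.59, limma unadjusted p = 0.0015, adjusted p = 0.825). Of the 13 kallikrein genes, a list chosen after the values were seen, 8 were tested, and 3 of the 8 reached 5 CPM in WC only. An unadjusted p under 0.05 with a higher WC level was found for 4 (3.02% of all genes). The 4 include KLK5 and KLK8, so this count follows in part from how the list was chosen and is a description only. The members other than KLK5 and KLK8 were at most 0.18 higher on the log2 scale in RT-112.

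S100A7 (chromosome 1, 153457744 to 153460651), or psoriasin, an antimicrobial protein of inflamed epidermis, was at 0.72, 144.43 and 1.51 CPM in KK and at 7.72, 722.37 and 1141.68 CPM in WC. WC was higher within each line, but RT-112 WC lay below HT-1376 KK, so that the variants overlap between lines (log2FC 4.97, SE 1.25). S100A8, a subunit of calprotectin, was at 702.02, 732.86 and 32.34 CPM in KK and at 1540.60, 24439.00 and 10429.80 CPM in WC, with log2 changes of 1.18, 5.23 and 8.84. Its partner S100A9 was just outside the 2-fold limit in RT-112 (0.99) and had changes of 4.19 and 7.45 in HT-1376 and CAL-29. The 14 S100 genes in the table summed to 37488.29, 36758.48 and 9460.98 CPM in KK and to 43895.64, 85175.03 and 41801.46 CPM in WC.

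PI3, which encodes the elastase inhibitor elafin, was at 6.65, 1.91 and 1.51 CPM in KK and at 30.68, 89.95 and 547.00 CPM in WC (log2FC 5.34, SE 1.01). KRT1, a keratin of suprabasal epidermis, was at 0.72, 0.92 and 0 CPM in KK and at 5.85, 3.56 and 91.82 CPM in WC, so that in CAL-29 it was at least 793-fold higher when the 0 reads in KK were set to the floor of 3 reads. HOXC13, a homeobox factor of hair and nail, and HR, a corepressor of the hair follicle, had log2FC values of 1.93 (SE 0.42) and 2.07 (SE 0.45). AQP3, the glycerol channel of basal epidermis, had 3.81 CPM in KK and 49.03 CPM in WC of CAL-29, with smaller changes of 1.32 in RT-112 and 1.03 in HT-1376.

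Other members are known from innate immunity. SAA1, an acute-phase apolipoprotein, was at 7.37, 14.01 and 5.33 CPM in KK and at 21.46, 77.08 and 42.06 CPM in WC, without overlap (log2FC 2.49, SE 0.40). RNA5SP334, an rRNA pseudogene that lies within SAA1 on the same strand (chromosome 11, 18266393 to 18266510), has identical values in every library and cannot be told apart from SAA1, so the 40 entries hold 39 separate signals. DEFB1, a constitutive epithelial defensin, was at 183.17, 2.17 and 32.85 CPM in KK and at 360.49, 57.14 and 157.95 CPM in WC. Complement C3 was higher by 3.70 on the log2 scale in HT-1376 and by 1.10 and 1.19 in RT-112 and CAL-29.

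Among the chemokines, CCL5, which attracts T cells, was at 0.22, 2.63 and 0.17 CPM in KK and at 2.05, 17.53 and 1.80 CPM in WC. CXCL14 was at 1.27, 0.07 and 0.22 CPM in KK and at 5.06, 3.67 and 4.33 CPM in WC. CCL22 was at 12.69, 0.13 and 0.17 CPM in KK and at 27.61, 3.67 and 1.07 CPM in WC. IL1R2, the decoy receptor of interleukin-1, had 0, 1 and 0 reads in KK and 79, 107 and 15 reads in WC. SOCS3, an inhibitor of JAK-STAT signaling, was at 9.86, 4.27 and 4.48 CPM in KK and at 21.16, 17.75 and 14.39 CPM in WC, with no overlap (log2FC 1.75, SE 0.36). UBD, an inducible ubiquitin-like modifier, and SERPINA1, the antitrypsin gene, changed most in HT-1376 (2.96 and 4.44).

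INHBA led the secreted signaling genes. It encodes the subunit of activin A (chromosome 7, 41667168 to 41705834), and it was at 1.44, 0.39 and 3.81 CPM in KK and at 10.37, 11.61 and 62.98 CPM in WC. The lowest WC library was above the highest KK library, and the log2FC was 3.60 (SE 0.44, limma unadjusted p = 8.65e-05, adjusted p = 0.542). IGFBP5, which binds insulin-like growth factors, was at 0.72, 0.26 and 0.50 CPM in KK and at 5.18, 8.98 and 37.95 CPM in WC, also without overlap (log2FC 3.85, SE 0.62). THBS1, which encodes the matrix protein thrombospondin 1, was at 18.78, 0.39 and 71.81 CPM in KK and at 38.04, 8.82 and 164.86 CPM in WC. AZGP1, a secreted lipid-mobilizing glycoprotein, was below 1 CPM in each KK library and at 1.93, 25.47 and 5.29 CPM in WC.

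Enzymes of the kynurenine pathway, which turns tryptophan into NAD, were among the other members. KYNU was at 0.55, 0.20 and 11.16 CPM in KK and at 1.99, 7.34 and 20.80 CPM in WC, and QPRT was at 2.99, 66.16 and 6.67 CPM in KK and at 19.95, 129.78 and 40.60 CPM in WC. The transcription factors SOX9 and MAF had log2FC values of 2.33 (SE 0.51) and 1.47 (SE 0.40). The Ras GTPase-activating gene RASA4 had a log2FC of 1.57 (SE 0.31), the Ras-like GTPase gene RASL11A 1.54 (SE 0.41), and RASSF10, which encodes a protein with a Ras-association domain, 1.82 (SE 0.42). Cytoskeletal and membrane-linked members were MSN, MYLK, BASP1 and FRMD6, the last of which had nearly equal changes of 1.01, 1.05 and 1.07. NEURL3, HSD17B2, LINC02762 and C12orf75 had log2FC values from 1.61 to 2.11.

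The size of these changes depended on the line. The median change of the 40 genes was 1.44 for RT-112, against 2.64 for HT-1376 and 2.11 for CAL-29, and the change was smallest in RT-112 for 21 genes and largest in RT-112 for 2. In KK, 21 of the 40 genes were below 1 CPM in at least 1 library and 5 were below it in all 3. In WC, 23 were at 5 CPM or more in all 3 libraries. For 17 genes the lowest WC library was above the highest KK library, against 93 (0.742%) of all genes tested, and for 160 genes (1.28%) all WC libraries were below all KK libraries. These counts follow from how the genes were chosen and are given as a description. Of the 40 genes, 11 reached 5 CPM in WC only, against 378 (3.02%) of all genes tested. The unadjusted limma p of the 40 genes ran from 4.36e-06 to 0.022, and the adjusted p was 0.825 for all but KLK5 and INHBA. Just outside the limit were BARX2 (weakest change 0.998), S100A9 (0.99) and RAB32 (0.993), named after their values were seen.

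**Figure D3:**
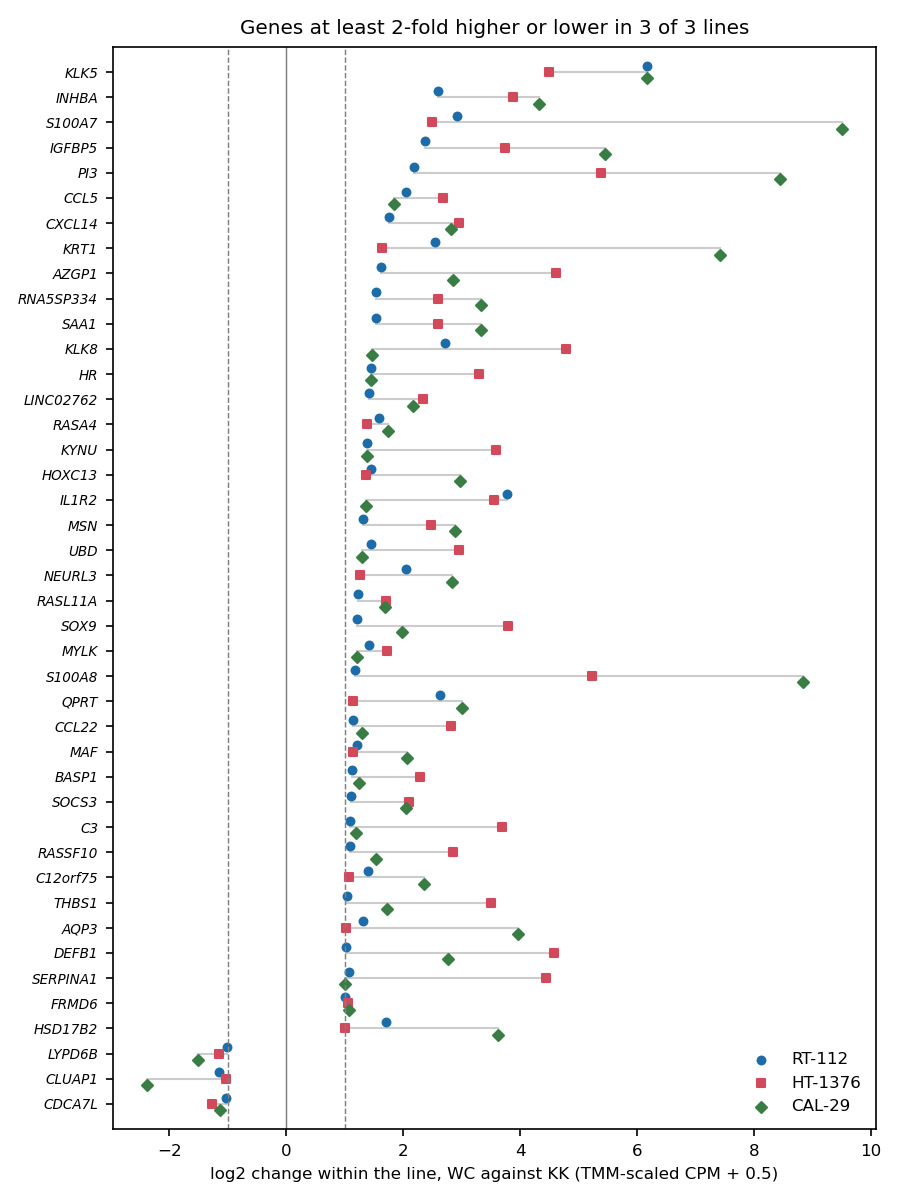
Log2 change within each line, WC against KK on TMM-scaled CPM + 0.5, for 39 of the 40 genes at least 2-fold higher and the 3 at least 2-fold lower in 3 of 3 lines, ordered by the weakest line and with points offset vertically by line. KLK5 stood apart with a smallest change of 4.49, and S100A7, S100A8 and PI3 spread the most, up to 9.50 in CAL-29.

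Genes lower in WC had smaller changes. LYPD6B, which encodes a GPI-anchored modulator of nicotinic receptors, was at 18.01, 27.49 and 124.00 CPM in KK and at 8.44, 10.68 and 29.75 CPM in WC (log2FC −1.22, SE 0.30, limma unadjusted p = 0.0044). CDCA7L, a MYC-interacting nuclear protein, was at 1.55, 9.27 and 86.89 CPM in KK and at 0.54, 3.12 and 26.99 CPM in WC. CLUAP1, a component of the intraflagellar transport machinery, was at 0.61, 4.47 and 20.69 CPM in KK and at 0.06, 1.70 and 2.31 CPM in WC, the first of these a single read. In each of the 3 genes WC was lower within the line, but the levels of the lines differed by more than the change did, and the variants overlapped.

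The next genes in this order were HNRNPA1, PSAT1, FBXO16, COL4A4, IQCH, ZNF32, TRAM2-AS1, HENMT1 and CLU, whose weakest changes lay between −0.99 and −0.85. PSAT1, an enzyme of serine synthesis, was at 7.81, 33.48 and 174.95 CPM in KK and at 2.53, 14.85 and 57.64 CPM in WC (log2FC −1.16, SE 0.30). COL4A4, a basement membrane collagen chain, was at 11.08, 19.20 and 25.62 CPM in KK and at 5.49, 5.86 and 6.41 CPM in WC, with no overlap. CLU, the secreted chaperone clusterin, was the most abundant of them, at 106.65, 692.15 and 206.85 CPM in KK and at 57.09, 133.40 and 58.59 CPM in WC (log2FC −1.44, SE 0.36). As HNRNPA1 has many processed pseudogenes that share its sequence, its values (log2FC −1.17) are less certain.

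Gene lists for pathways and cell types were summarized by their counts and medians, beside a median log2FC of −0.02 over all genes. None of their members passed the adjusted p in the limma fit. Of all genes tested, 378 reached the 5 CPM of the filter in WC only and 1533 in KK only. Basal and squamous keratins had the highest median, 2.27 over 7 genes tested. By line the median was −0.07 for RT-112, 3.76 for HT-1376 and 3.39 for CAL-29. Of the 7, 6 were higher in WC with an unadjusted p under 0.05, against 379 (3.02%) of all genes and 205 (1.64%) lower. The 6 include KRT6A and KRT6B, which reached 5 CPM in WC only. The 5 keratins at 5 CPM in KK had a median of 2.21. KRT17 was at 940.70, 2.70 and 291.61 CPM in KK and at 1158.77, 48.48 and 919.97 CPM in WC, and KRT15 had changes of 0.61, 2.90 and 1.85. KRT6A, named after its values were seen, had a change of −0.92 for RT-112, 6.15 for HT-1376 and 7.91 for CAL-29.

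Cornified envelope and late squamous genes (13 tested, of which 7 reached 5 CPM in WC only) had a median of 1.40, again with the RT-112 median (−0.13) apart from HT-1376 (2.73) and CAL-29 (3.64). SPRR2A, a cross-linked protein of the cornified envelope, was at 0, 0 and 0.11 CPM in KK and at 0.24, 67.88 and 9.45 CPM in WC. SPRR1B was at 2.11, 2.96 and 0.95 CPM in KK and at 1.57, 168.02 and 635.45 CPM in WC. KLK5 was the only member of this list that was at least 2-fold higher in 3 of 3 lines. For the luminal urothelial genes (12 tested) the median was −0.06, and 1 member had an unadjusted p under 0.05. This was FABP4, a fatty acid-binding protein, at 279.12, 0.33 and 0.73 CPM in KK and at 470.03, 3.01 and 39.42 CPM in WC, higher in WC in 3 of 3 lines (log2FC 2.75, SE 0.77). GATA3, a luminal transcription factor, had changes of −0.10, −0.56 and −0.25. The uroplakin gene UPK1B, named after its values were seen, had changes of −1.38, −1.07 and 5.09.

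CXC chemokines and interleukin-1 genes had a median of 1.13 over 13 genes, of which 2 reached 5 CPM in WC only. Their line medians were 0.00, 2.89 and 1.45. LIF, a cytokine of the interleukin-6 family, was at 5.60, 0.07 and 3.42 CPM in KK and at 9.16, 11.18 and 19.06 CPM in WC. IL1B was at 1.55, 0.72 and 3.98 CPM in KK and at 2.59, 5.15 and 8.43 CPM in WC. Of the 15 genes of MHC class I and antigen processing, 8 were higher in WC in 3 of 3 lines, against 14.5% of all genes. Their median was 0.51, with line medians of 0.38, 0.59 and 0.38 on the TMM scale. In deposited CPM their CAL-29 sum was 5013.66 in KK and 5094.65 in WC, so the CAL-29 median depends on the scaling. The sums were 3190.49 and 3417.96 in RT-112, and 9141.21 and 15516.91 in HT-1376. HLA-F was at 0.55, 92.67 and 23.32 CPM in KK and at 3.56, 320.04 and 27.33 CPM in WC, and the immunoproteasome subunit PSMB9 had changes of 1.03, 1.01 and 0.85. HLA genes are highly similar in sequence, so tags may be divided among them.

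Of the 15 metalloproteinases in the table, 11 were tested, and 5 of these reached 5 CPM in WC only and 1 in KK only, so that the filter bears on their median of 0.93 (0.10, 0.76 and 1.49 by line). MMP9 and MMP1, the latter named after its values were seen, had an unadjusted p under 0.05. The leading members by weakest line were MMP17 (0.94, 1.39 and 0.46) and MMP15 (0.52, 0.76 and 0.31). In deposited CPM of CAL-29 both were slightly lower in WC (12.78 to 12.31 and 21.58 to 18.61). MMP17 of HT-1376 went only from 0 to 0.77 CPM. Among the 7 genes of plasminogen activation the median was 1.10, and PLAU, which encodes urokinase, was at 19.23, 98.92 and 185.44 CPM in KK and at 34.48, 297.09 and 201.69 CPM in WC (log2FC 1.10, SE 0.34). TIMP3, a metalloproteinase inhibitor, was at 194.86, 978.11 and 328.94 CPM in KK and at 237.52, 188.29 and 45.43 CPM in WC. It was lower in WC of HT-1376 and CAL-29 but not of RT-112, with changes of 0.33, −2.20 and −2.30.

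TGF-β, activin and BMP genes (19 tested, of which 2 reached 5 CPM in WC only) had a median of 0.64. Of the 19, 8 were higher in WC in 3 of 3 lines (all genes 14.5%). An unadjusted p under 0.05 with a higher WC level was found for 6 (all genes 3.02%). Besides INHBA, ID3, an inhibitor of differentiation induced by BMP signals and named after its values were seen, was at 578.08, 1412.64 and 187.23 CPM in KK and at 1312.67, 2146.50 and 617.62 CPM in WC (log2FC 1.42, SE 0.44). Collagens (16 tested, of which 3 reached 5 CPM in WC only) had a median of 0.95. The highest line median was in HT-1376 (2.18, against 0.33 and −0.13 in RT-112 and CAL-29). The fibroblast markers COL1A2 and THY1 had 2.50 and 0.07 CPM in KK and 18.85 and 12.82 CPM in WC of HT-1376, and at most 0.18 CPM in the other lines. The 6 fibroblast markers in the table summed to 5.40 and 55.39 CPM in KK and WC of HT-1376, and to between 11.31 and 20.44 CPM in the other 4 libraries, and their part in the HT-1376 changes was not tested.

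Genes of the unfolded protein response had the lowest median, −0.71 over 16 genes, with line medians of −0.26 (RT-112), 0.03 (HT-1376) and −1.77 (CAL-29). The 16 genes summed to 21648.39 CPM in the KK library of CAL-29 and to 5785.62 CPM in its WC library, and to between 2695.51 and 4985.26 CPM in the other 4 libraries. HSPA5, the ER chaperone BiP, named after its values were seen, had 6321.40 and 406.48 CPM in these libraries. PDIA6, a disulfide isomerase, was lower in WC in 3 of 3 lines, with log2 changes of −0.63, −0.56 and −0.88 (limma SE 0.32). The ATF4 amino acid response had a median of −0.33 over 21 genes, with −1.21 in CAL-29. The part that the high level of these genes in CAL-29 KK has in the other CAL-29 changes was not tested.

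The lists of growth and metabolism had medians nearer to that of all genes. DNA replication and mitosis genes (27 tested) went from −0.77 in HT-1376 to 1.59 in CAL-29 with a median of 0.18, and oxidative phosphorylation genes (29 tested) went from −0.25 in RT-112 to 0.88 in CAL-29 with a median of 0.14. Of the 34 cytosolic ribosomal protein genes, 13 were higher in WC in 3 of 3 lines, against 14.5% of all genes, and the median was 0.35. In the Rap1 list (21 tested) the median was 0.00, and THBS1 was the only member at least 2-fold higher in 3 of 3 lines. The WNT list (20 tested) and the ERBB list (12 tested) had medians of 0.28 and 0.03.

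**Figure D4:**
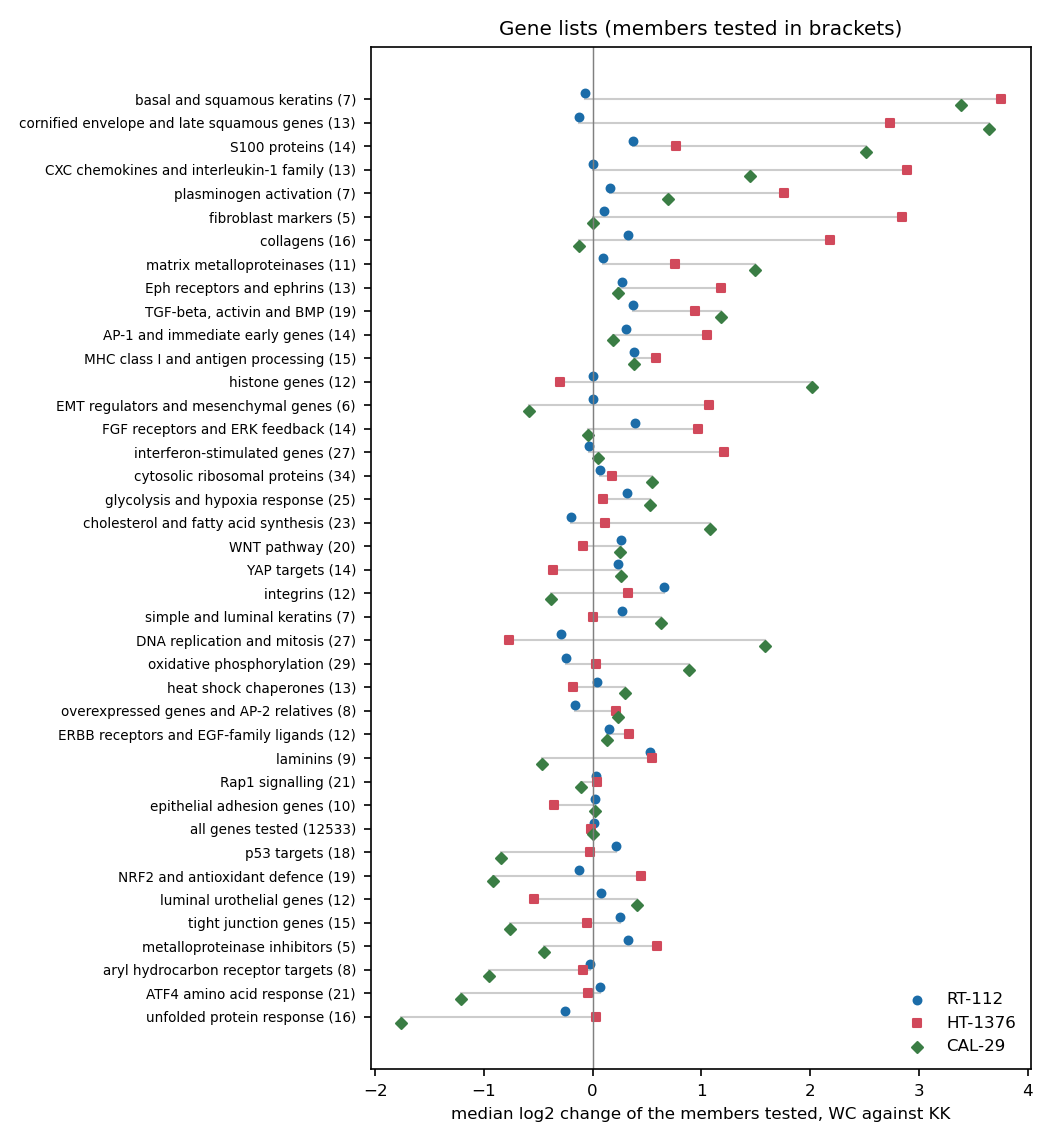
Median log2 change, WC against KK, of the tested members of each gene list with at least 3 of them (number in brackets), by cell line, with points offset vertically by line. Basal and squamous keratins and cornified envelope genes had medians near 0 in RT-112 and of 2.73 to 3.76 in the other lines, and the unfolded protein response was lowest in CAL-29 at −1.77.

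Levels in the single-transgene variants were set beside those in WC. WK/KK and WC/KK share the KK libraries, so only WC against WK tests the difference between them. The library labelled CAL-29 KC was left out, since its median r over 16575 genes was 0.959 to the libraries labelled HT-1376 and 0.841 to the others labelled CAL-29. KLK5 had 73.38 and 4.47 CPM in KC of RT-112 and HT-1376, and 5.99, 66.06 and 0.06 CPM in WK of the 3 lines. Its WC level in RT-112 was thus nearer to that of KC, and in HT-1376 to that of WK, while in CAL-29 only WC, of KK, WK and WC, was above 1 CPM. INHBA was at 2.35 and 12.55 CPM in KC and at 3.21, 17.83 and 11.49 CPM in WK. S100A8 was at 2388.77, 13732.30 and 1179.34 CPM in WK, above KK in each line.

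In WC against WK, 0 of 12008 genes passed the limma adjusted p of 0.05 and 225 (1.87%) had an unadjusted p under 0.05, while edgeR called 0 with 246 (2.05%) unadjusted, and DESeq2 called 11 (0.0916%) with 264 (2.2%) unadjusted. In 3 of 3 lines, 8 genes (0.0666%) were at least 2-fold higher and 2 genes (0.0167%) at least 2-fold lower in WC than in WK, and at 1.5-fold these counts were 34 (0.283%) and 15 (0.125%). TFAP2C and KLK8 were among the 8. TFAP2C had a log2FC of 1.61 in WC/WK (SE 0.26, limma unadjusted p = 2.86e-04, adjusted p = 0.999), with 56.20, 68.99 and 93.09 CPM in WK. KLK8 was at 23.80, 36.01 and 2.04 CPM in WK, the last below the 24.55 CPM of CAL-29 KK. Its log2FC in WC/WK was 2.46 (SE 0.55, limma unadjusted p = 0.0021, adjusted p = 0.999). For KLK5 the log2FC in WC/WK was 3.41 (SE 1.06), with changes of 4.23, −0.50 and 6.49. That of IGFBP5 was 1.38 (SE 0.41), with changes of 1.74, 2.22 and 0.19. That of S100A8 was 1.25 (SE 0.67), with changes of −0.53, 0.83 and 3.45. Unlike these genes, some genes at least 2-fold above KK had a log2FC below 0 in WC/WK. C3 was at 72.97, 215.05 and 123.65 CPM in WK, above WC in each line (WC/WK log2FC −0.96, SE 0.38). CCL22 had −0.57 (SE 0.36), with changes of 0.17, −0.40 and −1.47. SERPINA1 had −0.44 (SE 0.35), with changes of −1.12, 0.35 and −0.54. MMP9 was at 0.49, 19.73 and 0 CPM in WK, so that of the lines in which WC exceeded KK, WK was above 1 CPM in HT-1376 only.

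**Figure D5:**
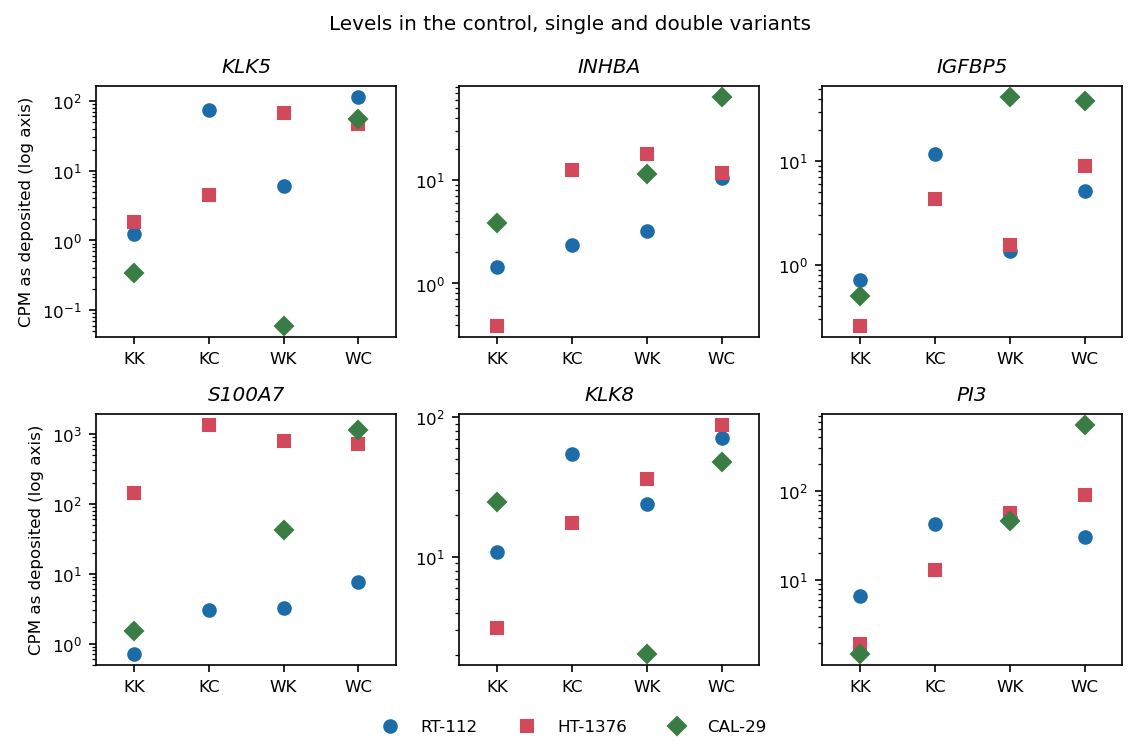
Deposited CPM (log axes) of KLK5, INHBA, IGFBP5, S100A7, KLK8 and PI3 in KK, KC, WK and WC, 1 library per point, without the library labelled CAL-29 KC. The genes were drawn from those at least 2-fold higher in 3 of 3 lines, so every WC point lies above the KK point of its line by choice. KLK5 and KLK8 of CAL-29 were high in WC (54.88 and 47.85 CPM) and low in WK (0.06 and 2.04 CPM). Their KK levels there were 0.34 and 24.55 CPM.

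Of the 9 genes furthest above KK in a single line, 7 were at least 2-fold higher in another line too, and 3 of these in 3 of 3 lines. Of all genes tested, 3.56%, 10.2% and 14.5% were at least 2-fold higher in RT-112, HT-1376 and CAL-29, and 0.319% in 3 of 3 lines. The 9 genes were picked as extremes, so their counts are a description only. The genes furthest above KK in RT-112 were SUSD2 (0.06 to 33.94 CPM), KLK5 and the long non-coding RNA LINC01127 (0 to 18.45 CPM), and those furthest below were IFI27, POLE3 and AFAP1L2. In HT-1376 they were S100A2 (23.22 to 3357.36 CPM), SPRR2A and TNC (0.26 to 84.97 CPM), against SIGLEC6, ATP6V1B1 and ATOH8. In CAL-29 they were S100A7, SPRR1B and S100A8, against MAP1B (83.97 to 0.56 CPM), KLHDC7B and MERTK. S100A2, a calcium-binding protein of basal keratinocytes, was at 5075.44 and 4893.07 CPM in KK and WC of RT-112, with a change of −0.01 there.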

How the data were processed

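CAGE libraries were made from total RNA with cap-trapping, and single-end tags were mapped by the authors to hg38 with the Burrows–Wheeler Alignment tool and then HISAT2 (v2.0.5). Tag clusters that overlapped between replicates were retained by the authors. The deposited values are CPM, normalized by the authors to the library total, and replicate libraries were not pooled. In the 6 libraries used here, CPM summed to 939666 to 944660, since tags outside the listed genes are in the total. All columns matched a sample label. CPM were whole multiples of 1 read within 0.005 CPM for at least 99.98% of genes, and reads were recovered from these steps for edgeR and DESeq2.

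CPM were divided by TMM factors (edgeR 4.0.16), genes that reached 5 CPM in 1 or more of the 6 libraries were kept, and log2(CPM + 0.5) was fitted in limma (3.58.1) with variant and cell line as terms, trended empirical Bayes and Benjamini-Hochberg adjustment over all 12533 genes. A fold on this scale understates the change of low genes. Same-line KK and WC libraries deviated together from their variant means (r = 0.769, 0.753 and 0.679), and the lines pair them. Libraries of the same line differed by far more than sampling noise (smallest chi-square per degree of freedom 55.6). DESeq2 (1.42.0) and other scalings, pseudocounts and filters were alternatives. On simulated reads for WC/KK (12091 genes), limma called 4, 27, 48 and 50 of 50 genes changed by log2 folds of 1, 2, 4 and 5.5, and 3 unchanged genes. The same counts were 9, 34, 50 and 50 for edgeR, with 19 unchanged genes called. They were 13, 38, 50 and 50 for DESeq2, with 34 unchanged genes called. The changed genes were drawn from genes with many reads, and each had the same fold in the 3 lines. These counts therefore do not show how often genes with few reads or with uneven changes would be called.

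Named genes were WWOX, TFAP2A, TFAP2C, MMP9, the 12 genes with the largest weakest-line change in each direction, the genes at least 2-fold in 3 of 3 lines, for each list its members 2-fold in 3 of 3 lines or, where none was, the leading 2 by weakest-line change, and the 3 leading genes per line and direction. Of the 41 gene lists, 677 entries in all, 635 entries were in the table. Symbols matched 16553 of 16575 gene identifiers, and gene positions are from GENCODE on hg38. The members and lists were chosen with earlier results of these data known. Of the 40 genes at least 2-fold higher, 1 is counted but not reported here. Leukocyte and endothelial markers had 1 and 0 genes past the filter. Depth limits low genes, since 3 reads correspond to 0.164 to 0.197 CPM, and intervals cover counting error only.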

Additional observations from a re-analysis of the deposited data

Results flagged for a closer look

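Among the named genes, 7 were at least 2-fold higher in WC than in KK in 1 line and at least 2-fold lower in another, and the difference between the lines was not tested, since each line has 1 library per variant. IFI27, an interferon-induced gene, had a log2 change of 4.06 in HT-1376 (13.02 to 199.57 CPM) and −2.86 in RT-112 (6.48 to 0.54 CPM). AFAP1L2 had 2.64 in HT-1376 and −2.34 in RT-112. SIGLEC6, a sialic acid-binding lectin, had 3.22 in RT-112 (0 to 3.13 CPM) and −4.83 in HT-1376 (128.84 to 3.56 CPM), and the proton pump subunit ATP6V1B1 had 2.19 in CAL-29 and −4.76 in HT-1376. The microtubule protein gene MAP1B had 2.87 in HT-1376 and −5.73 in CAL-29, KLHDC7B had 4.77 in HT-1376 (0.66 to 28.43 CPM) and −5.31 in CAL-29 (104.49 to 1.29 CPM), and the receptor kinase gene MERTK had 1.20 in HT-1376 and −4.98 in CAL-29. These genes entered the text because they led the changes of a line, and 505 of the 12533 genes tested (4.03%) had such opposite changes.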

How the results depend on the processing

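With the cell line left out of the fit (no replicate block), limma called 0 genes in WC/KK and 57 had an unadjusted p under 0.05, against 584 with the pairing by line. Fits of all 18 libraries with and without the replicate block, of 17 libraries without the library labelled CAL-29 KC, limma-voom and edgeR also called 0. The count of WC/KK genes past the adjusted p was 1 (KLK5, adjusted p = 0.040) with median-of-ratios factors and 65 in DESeq2, of which 26 were among the 40 genes. It ranged from 0 to 35 with a line left out in turn, at 3 without RT-112, 35 without HT-1376 and 0 without CAL-29. For KLK5 the adjusted p ran from 3.66e-21 (DESeq2) to 1.00 (all 18 libraries, no replicate block). As DESeq2 called 34 unchanged genes on the simulated reads, its counts and adjusted p-values in this section are a description only. The count of genes at least 2-fold higher was 25 without TMM scaling, 79 and 23 with pseudocounts of 0.05 and 2 CPM, and 143 at 1.5-fold, and that of lower genes was 7 without TMM scaling, 1 with median-of-ratios factors or with 5 CPM required in 3 libraries, 13 and 0 with the pseudocounts, and 84 at 1.5-fold. With 2 lines only, they ranged from 80 to 373 and from 24 to 224, as fewer lines must agree (373 and 224 without RT-112, 80 and 24 without HT-1376, 115 and 25 without CAL-29). The median log2FC of all genes was −0.26 without TMM scaling, 0.030 with median-of-ratios factors, −0.047 in limma-voom and 0.045 in DESeq2, and ranged from −0.036 to 0.025 with a line left out. MMP9 had a log2FC of 6.88 in DESeq2 (adjusted p = 6.85e-07), and with a line left out it ranged from 2.95 to 6.42, past the adjusted p only without RT-112. TFAP2C ranged from 0.79 to 1.90 (without CAL-29 and HT-1376), and WWOX was at −0.16 without TMM scaling and ranged from −0.10 to 0.39 with a line left out, the lowest without CAL-29. UPK1B ranged from −1.21 without CAL-29 to 2.05 without RT-112. In WC/WK, DESeq2 called 11 genes, and 0 to 2 were called with a line left out, the 2 without HT-1376. A fold depends most on the pseudocount where a gene has few reads in KK or in WC. Genes close to the 2-fold limit, such as LYPD6B, can cross it with more reads too. The cause of the other changes was not tested.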
